A study of Mus musculus with 11 samples.

Results

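The Dlk1-Dio3 domain is an imprinted gene cluster on mouse chromosome 12. Its 6 long genes, Dlk1, Meg3, Rtl1, Rian, Mirg and Dio3, were taken by symbol from the 25239 genes of the deposited count table, and all 6 were found. The series profiled embryonic stem cells of the J1 mouse line that carry mutations in genes for DNA methyltransferases, which methylate cytosine. Of its 11 samples, 3 are RNA-seq libraries of day 0 cells, 1 for each of the genotypes TKO, TKO_FL and TKO_602, and the other 8 are immunoprecipitations of modified DNA that were not analysed here. Other samples carry the name DNMT TKO for the first genotype, and the design text joins the suffixes of the remaining ones to TKO with a plus sign, so the TKO background is shared by all 3. The sources used here do not give which genes were removed, the meaning of either suffix, or whether a line is 1 clone. All cells grew with serum and LIF on feeder fibroblasts treated with mitomycin C, and polyadenylated RNA was sequenced.

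In an imprinted domain each gene is read mainly from the copy inherited from one parent. Here the paternal copy gives the protein-coding genes Dlk1, Rtl1 and Dio3, while the maternal copy gives a run of noncoding RNAs, Meg3, Rian and Mirg, which carry small nucleolar RNAs (snoRNAs) and a large cluster of microRNAs. The switch is a differentially methylated region between Dlk1 and Meg3 that carries DNA methylation on the paternal copy, and in stem cells the activity of Meg3 is widely read as a sign of the domain's imprint. The counts of these libraries are gene totals and do not separate the parental copies. Which copy was read in these cells was therefore not tested.

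The libraries held 21133660 (TKO), 19573689 (TKO_FL) and 43158441 (TKO_602) reads assigned to genes. Levels are given as CPM, read counts scaled to a common total of assigned reads, after TMM scaling, which evens out differences in composition between libraries (factors 0.980, 0.983 and 1.04). Per the header of the count table, the alignment of TKO_602 lay in a separate folder from the alignments of the other libraries, so genotype, folder and depth cannot be told apart for it. With 1 library per genotype there is no replicate spread, no p-value is given, and every difference lies between individual libraries. The intervals in brackets are exact 95% binomial intervals that cover counting error only. The level of Dnmt1, whose enzyme maintains methylation through cell division, was 159 CPM in TKO against 3364 in TKO_FL and 2444 in TKO_602. Counts per gene, here and for Dnmt3b below, do not show whether a transcript is intact or encodes a working enzyme. They also do not show which cells it came from. All 18 pluripotent stem cell markers had reads in every library, with summed levels of 8017, 9667 and 9245 CPM, and Pou5f1, which encodes the stem cell factor OCT4, had 1386, 1290.2 and 1169 CPM. All 25 fibroblast feeder markers also had reads in every library, with sums of 2963, 2463 and 2987 CPM, of which Fn1, the fibronectin gene, made up 1085, 1506 and 1558 CPM. The 19 primitive endoderm markers summed to 3746, 1367 and 2014 CPM.

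The noncoding RNAs, known as maternally expressed, were the most abundant members per kilobase of exon. Meg3 (mm10 chr12:109540996-109571729, plus strand, 12956 exonic bases) is a long noncoding RNA at the head of the maternal transcripts. It had 4198 reads in TKO, 4225 in TKO_FL and 4605 in TKO_602, which is 203, 219.7 and 103 CPM. TKO and TKO_FL lay close together and TKO_602 stood below both.

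Rian (chr12:109603945-109661711, plus strand, 3579 exonic bases) is the host of the domain's snoRNAs. It had 8807, 9548 and 7162 reads in TKO, TKO_FL and TKO_602, or 425, 496 and 159.8 CPM. It was the member with the most reads in each library, and its level in TKO_602 was the lowest of the 3. Mirg (chr12:109734981-109749457, plus strand, 1299 exonic bases) is the noncoding transcript across the distal microRNA cluster. Its 469, 344 and 193 reads gave 22.6, 17.9 and 4.31 CPM, with a clear step down in TKO_602 although that library was sequenced more deeply.

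The protein-coding members, known as paternally expressed, were scarcer per kilobase of exon. Dlk1 (chr12:109452823-109463336, plus strand, 4811 exonic bases) encodes a transmembrane protein related to the Notch ligands. It had 362, 309 and 478 reads, or 17.5, 16.1 and 10.7 CPM in TKO, TKO_FL and TKO_602. Rtl1 (chr12:109589193-109600330, minus strand, 6358 exonic bases) is a gene derived from a retrotransposon whose protein acts in placenta and muscle. It had 28, 19 and 14 reads, or 1.35, 0.988 and 0.312 CPM. Dio3 (chr12:110279230-110281097, plus strand, 1868 exonic bases) encodes the deiodinase that inactivates thyroid hormone. It had 20, 26 and 34 reads, or 0.966, 1.35 and 0.759 CPM. Rtl1 and Dio3 were thus near the minimum of 1 CPM in at least 1 library of a pair that was required before a fold was called.

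Levels of different genes were compared per kilobase of exon. In TKO the order was Rian (119 CPM per kilobase), Mirg (17.4), Meg3 (15.6), Dlk1 (3.63), Dio3 (0.517) and Rtl1 (0.213). The interval of Mirg (15.2 to 19.8) held the value of Meg3 and overlapped its interval, and those of Dio3 (0.248 to 0.951) and Rtl1 (0.116 to 0.357) overlapped too. In TKO_FL the order was Rian (139), Meg3 (17.0), Mirg (13.8), Dlk1 (3.34), Dio3 (0.724) and Rtl1 (0.155), and no neighbours overlapped. TKO_602 had the same order, with Rian at 44.7, Meg3 at 7.93, Mirg at 3.32, Dlk1 at 2.22, Dio3 at 0.406 and Rtl1 at 0.0491 CPM per kilobase, again with no overlap between neighbours. Mirg therefore stood beside Meg3 in TKO and below it in the other libraries.

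**Figure D1:**
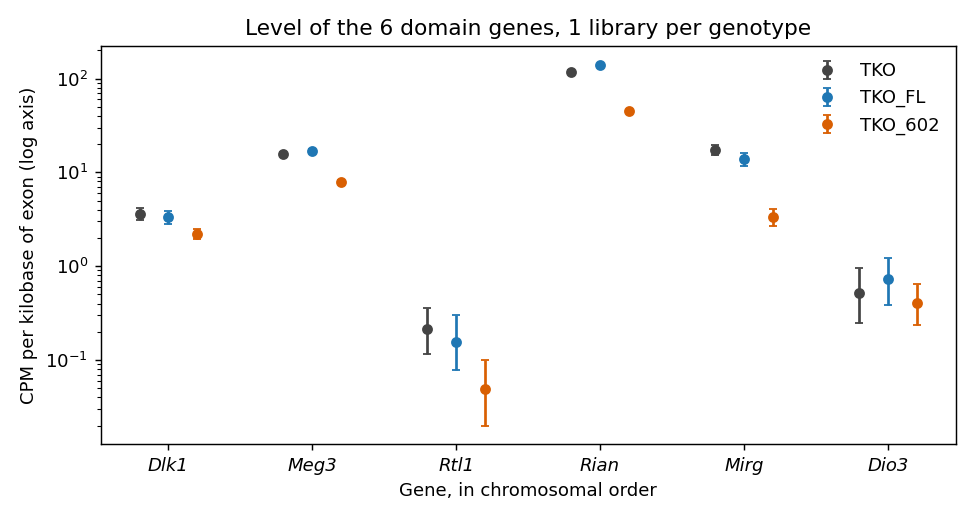
CPM per kilobase of exon (log axis) of the 6 genes in chromosomal order, 1 point per library, with bars for exact 95% binomial counting intervals. Rian is the highest in every library (119, 139 and 44.7), and the TKO_602 points of Meg3, Rian and Mirg lie below those of both other libraries.

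The comparison of TKO_FL with TKO set a library with high Dnmt1 against one with low Dnmt1. None of the 6 members was at least 2-fold higher (background 3.24% of 13563 genes tested) and none was at least 2-fold lower (background 2.50%). Folds are log2 of the ratio of CPM plus a pseudocount of 1, while their intervals are of the ratio of counts without one. Meg3 was at 0.12 (interval 0.03 to 0.20) and Rian at 0.22 (0.16 to 0.28), both slightly higher in TKO_FL by more than counting error. Mirg was the other way, at -0.32 (-0.63 to -0.05). The coding genes had folds whose intervals held 0: Dlk1 at -0.11 (-0.45 to 0.19), Rtl1 at -0.24 (-1.71 to 0.90) and Dio3 at 0.26 (-0.82 to 1.83). The median of the 6 folds was 0.00, with 3 below 0, and the median of all genes tested was 0.00. The interval of Rtl1 holds a level 2-fold lower, and that of Dio3 a level 2-fold higher, so counting error does not exclude such differences.

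The authors' deposited TPM table, which counts fragments per exonic length, gave the same pair on another scale. Rian had 263 TPM in TKO and 307 in TKO_FL, from 4576 and 4974 fragments, and Meg3 had 36.6 and 40.0 TPM from 2304 and 2345 fragments. Mirg had 39.7 and 32.0 TPM from 251 and 188 fragments. Dlk1 had 7.95 and 7.45 TPM, Dio3 1.10 and 1.54 TPM, and Rtl1 0.485 and 0.383 TPM. Each member kept the direction of its fold on this scale. TKO_602 was not analysed on it.

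In TKO_602 the noncoding RNAs were lower than in TKO. Rian was at a log2 fold of -1.41 (interval of the ratio -1.48 to -1.35), and its level was 37.6% of that in TKO. Mirg was at -2.16 (-2.76 to -2.05), the lowest of the members. Meg3 was at -0.97 (-1.07 to -0.89), or 50.7% of TKO, just inside the 2-fold threshold. Among the coding genes, Dlk1 was at -0.66 (-0.997 to -0.43), or 61.0% of TKO, with an interval below 0. Rtl1 was at -0.84 with the pseudocount, and its ratio without one was 23.1% of TKO (log2 interval -3.66 to -0.71), from 28 against 14 reads, and with a pseudocount of 0.1 its fold was -1.82, past 2-fold. Dio3 was under the CPM minimum in both libraries and was left out of the count. Its value was -0.16 (-1.56 to 0.94). In all, 5 members were tested, 2 were at least 2-fold lower (Rian and Mirg; background 8.06% of 13748 genes) and 0 were higher (background 11.0%). The median of the 5 was -0.97 and that of all genes 0.03. Meg3, Rian and Mirg lay at percentiles 8.42, 3.17 and 0.676 of all genes tested, counted from the lowest fold. In bulk RNA, fewer cells of a type and less RNA per cell cannot be told apart.

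Against TKO_FL the same library stood lower by more for Meg3 and Rian. Meg3 was at -1.09 (-1.18 to -1.01), Rian at -1.63 (-1.70 to -1.57) and Mirg at -1.83 (-2.44 to -1.69). Dlk1 was at -0.55 (-0.88 to -0.28) and Dio3 at -0.42 (-1.96 to 0.33), while Rtl1, under the CPM minimum in this pair, was at -0.60 with the pseudocount. Its ratio without one was 31.6% of TKO_FL (log2 interval -3.37 to -0.19). Of 5 members tested, 3 were at least 2-fold lower (background 4.87% of 13683 genes) and 0 were higher (background 6.75%). The median was -1.09, beside 0.03 for all genes. The comparisons share libraries, so their folds are not independent of each other.

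Exonic length differs widely between the members, so each was also set beside genes within 25% of its own length. In TKO_602 against TKO, the median fold was 0.07 over 364 genes as long as Meg3, 0.05 over 4285 genes as long as Rian, -0.06 over 1685 genes as long as Mirg and 0.06 over 3665 genes as long as Dlk1. The medians of genes of like length thus lay near 0 in that comparison.

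Rian alone held 63.4%, 66.0% and 57.4% of the members' reads in TKO, TKO_FL and TKO_602, and Meg3 held 30.2%, 29.2% and 36.9%. Ratios between members inside a library do not depend on the scaling between libraries. Meg3, Rian and Mirg together made up 97.0% of the members' reads in TKO (96.6 to 97.4), 97.6% in TKO_FL (97.2 to 97.9) and 95.8% in TKO_602 (95.3 to 96.3). Per kilobase, Rian had 7.59 times the reads of Meg3 in TKO (7.21 to 8.00), 8.18 times in TKO_FL (7.77 to 8.62) and 5.63 times in TKO_602 (5.34 to 5.94). The ratio of Mirg to Meg3 was 1.11 (0.967 to 1.27), 0.812 (0.691 to 0.949) and 0.418 (0.336 to 0.510). The noncoding RNAs therefore differed between TKO_602 and TKO by unequal amounts, with the more distal Mirg and Rian further down than Meg3.

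The change in each ratio was computed as well. From TKO to TKO_602, Rian to Meg3 changed by a factor of 0.741 (0.688 to 0.799), Mirg to Meg3 by 0.375 (0.290 to 0.480) and Mirg to Rian by 0.506 (0.392 to 0.645). The ratio of Dlk1, known as paternally expressed, to Meg3, known as maternally expressed, changed by 1.20 (0.979 to 1.48). That interval holds no change. From TKO to TKO_FL, Mirg to Meg3 changed by 0.729 (0.591 to 0.902), Mirg to Rian by 0.677 (0.551 to 0.833), Rian to Meg3 by 1.08 (1.00 to 1.16) and Dlk1 to Meg3 by 0.848 (0.672 to 1.06). From TKO_FL to TKO_602, Dlk1 to Meg3 changed by 1.42 (1.15 to 1.77), Mirg to Meg3 by 0.515 (0.392 to 0.666) and Mirg to Rian by 0.748 (0.571 to 0.965). Mirg was thus lower relative to both other noncoding RNAs in TKO_FL too, beyond counting error.

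**Figure D2:**
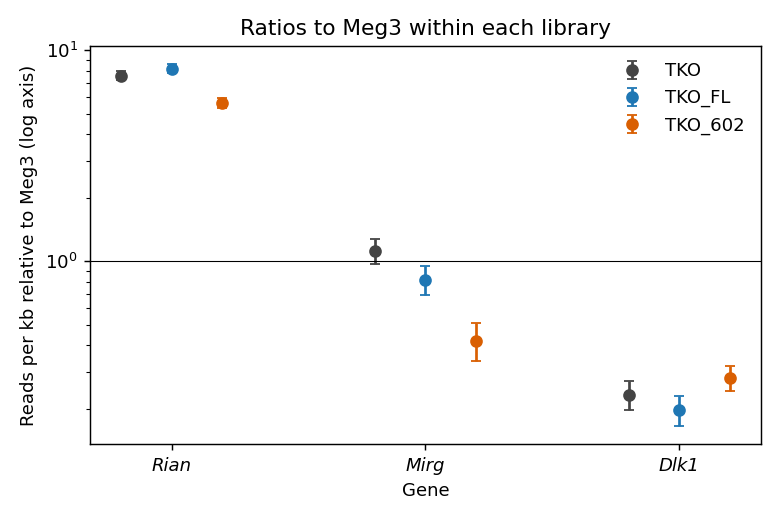
Reads per kilobase of Rian, Mirg and Dlk1 relative to Meg3 inside each library (log axis), with exact 95% binomial counting intervals as bars. The Mirg point of TKO (1.11) lies above those of TKO_FL (0.812) and TKO_602 (0.418), and Rian lies between 5.63 and 8.18 times Meg3.

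The annotated starts of Meg3, Rian and Mirg, the noncoding RNAs that were lower together in TKO_602, are shown here because CpG sites are where DNA methyltransferases act. Each run covers 250 bases before the start and 50 after it, on the plus strand, from RefSeq on GRCm38.p6, with CpG sites in capitals. The first is Meg3 at chr12:109540746-109541045, the second Rian at chr12:109603695-109603994 and the last Mirg at chr12:109734731-109735030.
Meg3: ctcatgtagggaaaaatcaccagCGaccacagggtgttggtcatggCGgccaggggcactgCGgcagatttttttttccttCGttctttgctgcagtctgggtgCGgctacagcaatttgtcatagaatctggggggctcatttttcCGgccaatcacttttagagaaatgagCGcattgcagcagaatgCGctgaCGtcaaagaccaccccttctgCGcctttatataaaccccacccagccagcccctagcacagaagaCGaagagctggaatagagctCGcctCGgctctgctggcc
Rian: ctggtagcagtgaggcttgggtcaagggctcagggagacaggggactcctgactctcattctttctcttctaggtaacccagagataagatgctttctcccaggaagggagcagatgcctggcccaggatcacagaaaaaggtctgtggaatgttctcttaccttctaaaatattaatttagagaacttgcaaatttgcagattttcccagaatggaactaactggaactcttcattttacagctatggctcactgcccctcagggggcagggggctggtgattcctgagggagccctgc
Mirg: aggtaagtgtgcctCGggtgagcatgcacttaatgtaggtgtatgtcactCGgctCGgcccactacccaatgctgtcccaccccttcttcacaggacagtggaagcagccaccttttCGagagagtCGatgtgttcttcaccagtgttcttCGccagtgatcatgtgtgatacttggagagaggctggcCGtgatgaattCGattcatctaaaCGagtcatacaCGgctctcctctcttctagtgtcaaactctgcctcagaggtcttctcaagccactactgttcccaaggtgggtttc
The Meg3 window holds 13 CpG sites, the Mirg window 10 and the Rian window 0. Over 32851 promoters of the same length the median was 7, and 5.43% had none. A further annotated start of Meg3 had 1 CpG site, Dlk1 had 9 and Dio3 had 25, and Rtl1 had no entry. The letters TGCCGC, the core of the site known for the imprint-binding protein ZFP57, were searched on both strands. They occurred 1 time in the first Meg3 window and in none of the other member windows, against 11.6% of all promoters with a match. The Mirg window also covers the microRNA genes Mir668 and Mir485. Whether transcription begins at each annotated start, so that its window is a promoter, was not tested. No methylation value was analysed here for these windows.

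The window from the start of Dlk1 to the end of Dio3 (828 kb) holds 76 annotated genes, of which 70 are not members, and 45 of those had 0 reads in all 3 libraries. For genes wholly inside an exon of a member, the 0 is set by the counting rule described below. Only the snoRNA gene AF357359, inside an intron of Rian, reached 1 CPM. It had 347, 377 and 251 reads, or 16.8 CPM in TKO and 19.6 in TKO_FL, with TKO_602 below both. Its log2 folds were 0.21 in TKO_FL and -1.43 (-1.92 to -1.24) in TKO_602 against TKO, beside 0.22 and -1.41 for its host. The annotated gene spans only 30 bases. Whether its reads come from the snoRNA or from the transcript of its host was not tested. The 7 snoRNA genes together, all in introns of Rian, had 373, 401 and 289 reads. Dio3os, the antisense partner of Dio3, had 3, 0 and 10 reads, and 0 reads in TKO_FL allow a level of up to 0.312 CPM (6 reads).

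The 60 microRNA genes of the window had 34, 24 and 25 reads in all, and 42 had none. Poly(A) selection does not capture mature microRNAs, so these reads say nothing of their levels. The most were at Mir3072, in an intron of Mirg, with 15, 4 and 13 reads. In exons, 7 microRNA genes overlap Rtl1, 3 overlap Mirg and 1 overlaps Meg3, and a read on 2 genes is left out under the counting defaults. The long noncoding RNA gene 6430411K18Rik, of 1315 exonic bases, also overlaps Rtl1. With it counted, 27.0% of the exonic bases of Rtl1 are shared with other genes. For Mirg the share is 7.24% and for Meg3 0.726%, while Dlk1, Rian and Dio3 share none. All 8 genes that overlap Rtl1 lie wholly within its exonic bases. Their 0 reads in every library are thus set by the counting rule and say nothing of their levels. The same holds for Mir770, which lies wholly in an exon of Meg3. The 42 microRNA genes without reads include such genes. The counts carry no strand, so reads of Rtl1 and of transcripts opposite to it cannot be told apart where they were kept.

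The mature microRNAs below are shown because their genes overlap exons of members, where some bases are lost to those counts. Sequences are from RefSeq on GRCm38.p6, with the seed (bases 2 to 8), which sets the choice of target, in capitals. The first 6 lie opposite the Rtl1 exon, on the other strand, and the genes of the last 3 overlap exons of Mirg.
miR-431-5p: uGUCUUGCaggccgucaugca
miR-433-3p: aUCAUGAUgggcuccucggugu
miR-127-3p: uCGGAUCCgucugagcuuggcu
miR-434-3p: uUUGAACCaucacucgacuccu
miR-432: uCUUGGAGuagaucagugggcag
miR-136-5p: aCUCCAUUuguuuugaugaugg
miR-412-3p: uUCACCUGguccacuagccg
miR-369-3p: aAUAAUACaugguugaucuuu
miR-410-3p: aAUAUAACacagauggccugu
The window's microRNA genes carry 112 mature names with 103 seeds. Only 9 seeds are shared, each by a pair, and none of the 9 sequences above shares its seed with another microRNA of the domain. One shared pair, from the part of the cluster between Rian and Mirg, is shown for contrast, with the same capitals.
miR-379-3p: uAUGUAACaugguccacuaacu
miR-411-3p: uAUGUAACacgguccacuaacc

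Genes outside the window were read beside the members. The nearest genes with at least 1 CPM in a library were taken, 5 on each side. They lay 385 to 617 kb before Dlk1 and 166 to 527 kb after Dio3, so none is close to the window. Slc25a47 and Slc25a29 were near the CPM minimum, with at most 1.20 and 1.09 CPM in a library. On the side of Dlk1, Begain had 2.32, 7.38 and 6.72 CPM in TKO, TKO_FL and TKO_602, with folds of 1.34 and 1.22 against TKO. Wars, a tRNA synthetase gene, had 142, 112 and 75.6 CPM, a fold of -0.90 in TKO_602. On the side of Dio3, Ppp2r5c, a phosphatase subunit gene, had 169.9, 237 and 338 CPM (folds 0.47 and 0.99), and Mok, a kinase gene, had 12.2, 23.2 and 32.1 CPM (0.88 and 1.33). Hsp90aa1, a chaperone gene, was at -0.11 and -0.04. All flanking genes but Slc25a47 were tested in TKO_602 against TKO. None was at least 2-fold lower (background 8.06%), and Begain and Mok were at least 2-fold higher (background 11.0%). Wars, at -0.90, lay close to Meg3 at -0.97.

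**Figure D3:**
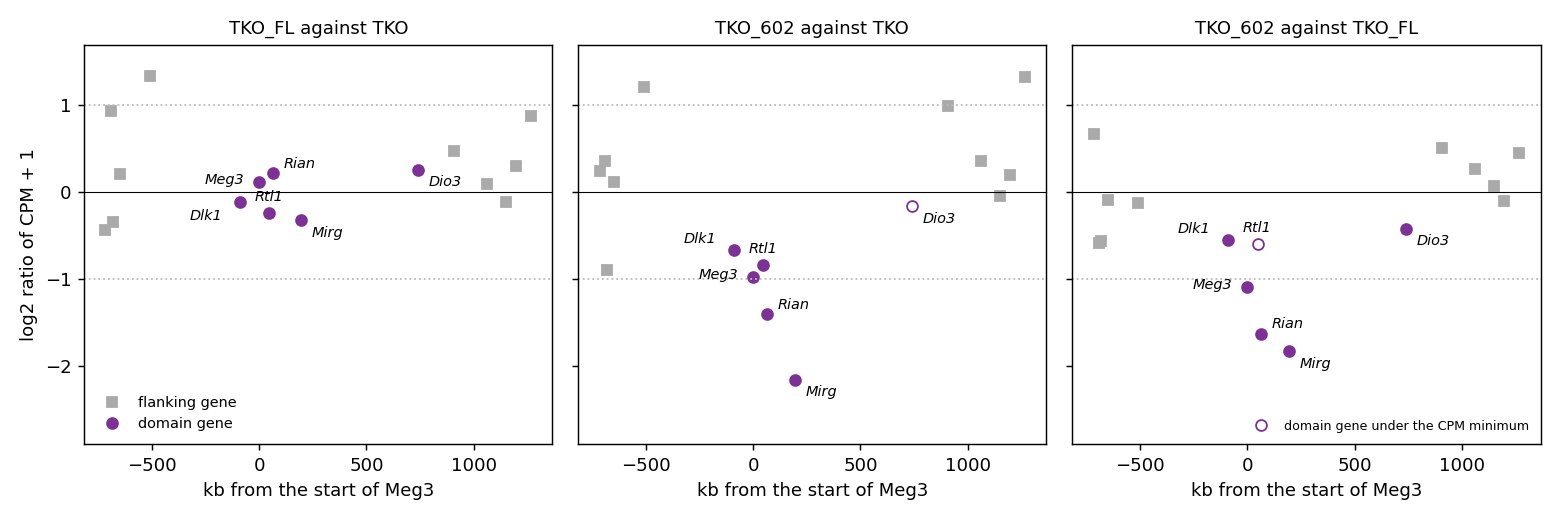
Log2 ratio of CPM plus 1 against the distance of each gene's start from the start of Meg3 in kb, for the 6 domain genes and the 10 flanking genes, which are drawn whether or not they met the CPM minimum, with dotted lines at 2-fold. In both TKO_602 panels Meg3, Rian and Mirg lie from -0.97 to -2.16, below every flanking gene, and in TKO_FL against TKO the 6 genes lie between -0.32 and 0.26.

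Known regulators of the domain, with genes that place, keep or remove DNA methylation and genes of repressive chromatin, were taken as a list of 21 genes, all measured. In TKO_602 against TKO, 1 was at least 2-fold higher (Dnmt1; background 11.0%) and 4 were lower (background 8.06%). The median was -0.35. Zfp57, which binds the methylated imprint, had 247, 170.0 and 77.7 CPM in TKO, TKO_FL and TKO_602, a fold of -1.66 (-1.76 to -1.58). Trim28, the co-repressor it recruits, had 2337, 1753 and 1101 CPM, a fold of -1.09. Dnmt3l, the cofactor of the de novo methyltransferases, had 658, 408 and 226 CPM (-1.54). Dnmt3b, one of those enzymes, had 71.7, 34.0 and 11.9 CPM (-2.49). Each of these 4 was also lower in TKO_FL than in TKO, where Meg3 and Rian were slightly higher and Mirg was lower.

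In TKO_FL against TKO, Dnmt1 was the only listed regulator at least 2-fold higher (background 3.24%). Dnmt3b was the only one lower (background 2.50%), at -1.06, and the median of the list was -0.14. In TKO_602 against TKO_FL none was higher (background 6.75%) and 4 were lower (Dnmt3b, Zfp57, Zfp445 and Zfp42; background 4.87%). The median was -0.59. Zfp445, another zinc finger protein of imprints, had 95.9, 127 and 58.5 CPM. Aff3, which binds the domain's control regions, had 16.8, 24.0 and 13.4 CPM. Dppa3, also on the list, had 43.5, 75.4 and 53.2 CPM. Whether any of these levels bears on the domain was not tested.

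**Figure D4:**
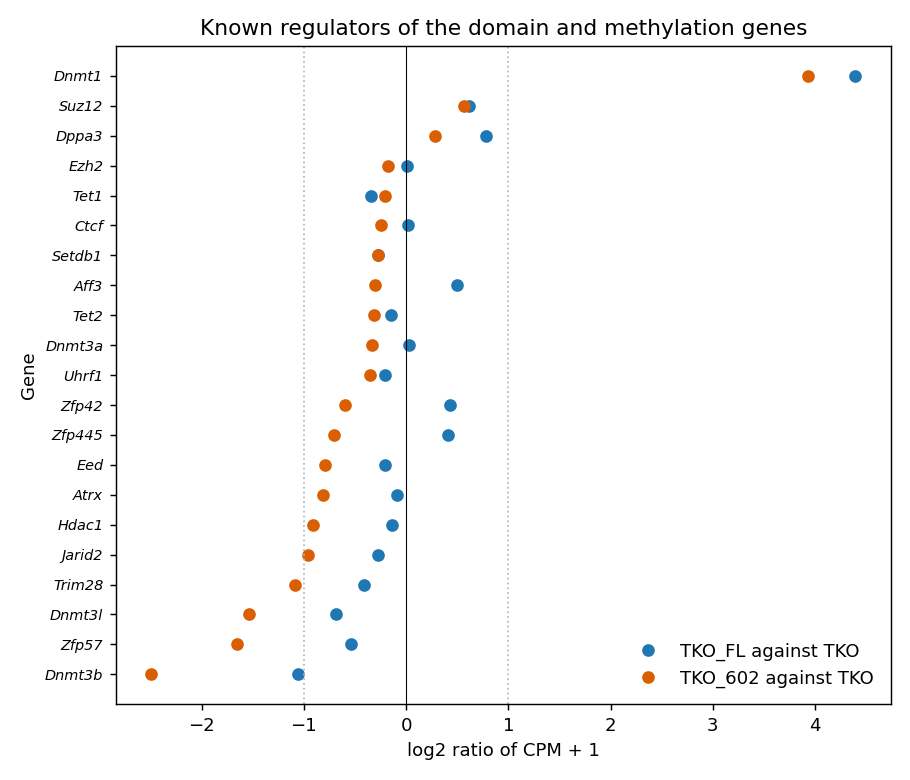
Log2 ratio of CPM plus 1 against TKO for the 21 listed regulators and methylation genes, ordered by the TKO_602 value, with dotted lines at 2-fold. Dnmt1 is far to the right in both comparisons (4.39 and 3.93), and Zfp57, Dnmt3l, Trim28 and Dnmt3b lie past -1 in TKO_602.

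Feeder fibroblasts and other cell types can carry RNA of this domain, so their markers stand beside the members. Fibroblast markers had a median of -0.26 in TKO_602 against TKO, with 1 of 24 tested higher (background 11.0%) and 5 lower (background 8.06%). The lower ones were S100a4 (25.5, 10.8 and 2.63 CPM in TKO, TKO_FL and TKO_602), Twist2 (5.75, 3.22 and 0.580), Acta2 (58.4, 18.5 and 17.0), Prrx1 and Thy1, and the higher one was Mmp2 (19.1, 30.7 and 70.4 CPM). Col1a1, a fibroblast collagen gene, had 163, 79.0 and 172 CPM. In TKO_FL against TKO the median was -0.68, with 7 of 24 lower (background 2.50%) and 0 higher (background 3.24%). Primitive endoderm markers were lower in both, with 16 of 17 lower in TKO_FL (median -2.58) and 13 of 17 in TKO_602 (median -1.62). The part of these cells in the members' levels was not tested.

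Pathways in which the members act were described by lists. Of the Notch pathway, to which Dlk1 is related, 30 of 34 genes were tested in TKO_602 against TKO. Of these, 4 were higher (background 11.0%) and 0 lower (background 8.06%), and the median was 0.08. Dner, a ligand-like gene, had 1.93, 6.60 and 22.0 CPM, and the receptor genes Notch3 and Notch1 had 61.8, 141 and 196 CPM and 61.3, 86.4 and 128 CPM. The remaining one was Psen2, of the gamma-secretase complex. In TKO_FL against TKO, 3 of 31 were higher (Dner, Notch3 and the target Hes1; background 3.24%) and 0 lower (background 2.50%). The median was 0.16.

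Of the thyroid hormone pathway, on which Dio3 acts, 13 genes were tested in TKO_602 against TKO. Of these, 2 were higher (background 11.0%) and 1 lower (background 8.06%), with a median of 0.57. Slc16a10, a thyroid hormone transporter gene, had 5.17, 11.4 and 14.5 CPM, and Thrsp, a responsive gene, had 0.386, 1.66 and 4.89 CPM. Rxrg, a partner receptor, was at 1.16, 0.936 and 0.0446 CPM, the last from 2 reads. In TKO_FL against TKO, 1 of 14 was higher (Slc16a10, 1.01; background 3.24%) and 0 lower (background 2.50%), with a median of 0.27. Thra, the main receptor gene, had 9.12, 6.19 and 16.9 CPM and was at 0.82 in TKO_602.

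MicroRNA processing, which handles the products of the Mirg cluster, was listed with 14 genes. In TKO_602 against TKO, 2 were higher (background 11.0%) and 5 lower (background 8.06%), with a median of -0.34. Dgcr8, which recognises the hairpins in the nucleus, had 80.0, 76.4 and 19.7 CPM (-1.97). Lin28b, which blocks the maturation of let-7, had 74.2, 62.9 and 14.6 CPM (-2.27). Lin28a (-1.33), Tarbp2 (-1.16) and Xpo5, just past the threshold with 211, 170.1 and 105 CPM, were the others lower, and Ago4 and Prkra were higher. In TKO_FL against TKO none of the 14 passed 2-fold in either direction (background 3.24% higher and 2.50% lower), with a median of -0.07.

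Genes with a like pattern were named by the distance between their folds against TKO in TKO_FL and TKO_602, among 10980 genes with at least 5 CPM in a library. Nearest to Meg3 were Bpnt1, Sirt7 and Bclaf1, and 174 genes lay within a distance of 0.25. Nearest to Rian were Trim36, Ankrd45 and Mt2, with 33 genes within that distance. Nearest to Mirg were Tmem238, Tnfsf11 and Adk, with 26. Dlk1 had 922 genes within 0.25, led by Tfip11, Hspe1 and Ppcs. Rian and Mirg thus had fewer genes within that distance than Meg3 and Dlk1. Their folds in TKO_602 against TKO are also larger, and fewer genes have large folds, so the counts largely restate fold size. With only 2 folds per gene, this likeness is a description of 3 libraries.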

How the data were processed

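Poly(A) RNA-seq libraries of TKO, TKO_FL and TKO_602, grouped by the genotype in their titles, were analysed, 1 per genotype. Per the file headers, the authors made the deposited read counts with featureCounts 2.0.6 in paired mode without counting pairs, on the mm10 RefSeq annotation, with no strand option and no option for reads on several genes or places. The submitters' processing notes also name Trim Galore, HISAT2 and SAMtools. Counts are thus of single mates, and intervals used reads divided by 2. PCR duplicates were not accounted for, so intervals and floors (6 reads) cover counting error only. The deposited signal table named TPM holds TKO and TKO_FL, and its columns were divided by 10 to give TPM. It served as an alternative. Each table has 11 further library columns that match none of the samples and were not used.

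CPM used TMM factors from edgeR 4.0.16 (R 4.3.3), and DESeq2 1.42.0 gave the alternative size factors. Folds, exact 95% intervals and tables came from Python 3.11.15 (scipy 1.17.1, numpy 2.4.6, pandas 2.3.3). A fold was called at 2-fold with a pseudocount of 1 and at least 1 CPM in a library of the pair. The fold and interval steps were tested on simulated counts. The named genes were all members, other genes of the window, the 5 nearest flanking genes per side with 1 CPM, up to 4 genes per list with the largest folds, and the 3 nearest patterns per member. Other genes of the lists named in the text were chosen after their values were seen. The members and lists were chosen with earlier results of these data known. All 60 microRNA genes of the window and 5 of 6 members were matched to RefSeq sequence tables by symbol. Alternatives were other pseudocounts, scalings and filters, the TPM table, and adding short RNA genes to their hosts.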

Additional observations from a re-analysis of the deposited data

How the results depend on the processing

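Over 169 values recomputed under other settings, 162 moved by less than their counting error, or, for counts of members, by no more than 1.5 times. The other 7 moved further. A change of the filter alone cannot move the fold of a single gene. Such folds are among the 162 by construction, so that number overstates how stable the results are. The median of TKO_FL against TKO, 0.00 to 2 decimals, took the other sign with a pseudocount of 0.1 and, at -0.01, with median-of-ratios size factors. The median of TKO_602 against TKO became -1.41 with a pseudocount of 0.1, under which Rtl1 was at -1.82 and 3 members were lower. On fragments of the deposited TPM table, the ratio of Rian to Meg3 was 7.19 in TKO and 7.68 in TKO_FL. Mirg was at -1.57 against TKO and -1.30 against TKO_FL with a pseudocount of 5, and Rian at -1.32 and -1.55 with library totals alone. A larger pseudocount pulls folds of low genes towards 0 by construction, and for the other shifts the cause was not tested. Meg3 in TKO_602 against TKO stayed between -0.99 and -0.89 in every setting, short of 2-fold. No library could be left out, since each genotype has 1. No paired analysis was possible because each genotype has 1 library and the labels carry no replicate numbers. Rtl1 and Dio3 rest on 14 to 34 reads per library, and their folds are limited by that depth.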

Other observations

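Imprinted genes of other domains were read beside this one, in lists by the parental copy taken to be expressed. The paternal list includes H13, Dlx5 and Gnas, whose place in it was not checked. Of 22 genes of the paternal list tested in TKO_602 against TKO, 8 were at least 2-fold lower (background 8.06%) and 2 higher (background 11.0%). Their median was -0.52. Peg10, a placental gene derived from a retrotransposon, had 694, 519.9 and 114 CPM in TKO, TKO_FL and TKO_602. Mest had 207, 135 and 48.4 CPM, and Zdbf2 had 206, 143 and 55.2 CPM. Sgce, the neighbour of Peg10, was higher, with 3.38, 10.5 and 12.2 CPM, as was Igf2, a fetal growth factor gene, with 16.2, 11.6 and 34.4 CPM. Of 18 genes of the maternal list tested, 1 was higher (background 11.0%) and 2 were lower (background 8.06%), with a median of -0.25. Slc22a18, a transporter gene, had 0.821 CPM in TKO and 5.02 in TKO_602. In TKO_FL against TKO, the paternal list had 1 of 22 higher and 0 lower (median -0.27), and the maternal list 1 of 18 higher and 2 lower (median 0.09). The background in that pair was 3.24% higher and 2.50% lower.

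Relatives of Rtl1, the gag-like genes derived from retrotransposons, had 2 of 8 tested lower in TKO_602 against TKO, Peg10 and Ldoc1 (3.86, 2.60 and 0.223 CPM), and 0 higher. The background in that pair was 8.06% lower and 11.0% higher, also for the next list. Dio3 is a selenoprotein, and of a list of 15 genes of selenoprotein synthesis and of other selenoproteins, 1 was lower, the glutathione peroxidase gene Gpx1 (395, 197 and 154 CPM), itself a selenoprotein, and none was higher. Among the nearest patterns, Rtl1 stood closest to Adsl, Trub2 and Eif1ad and Dio3 to Ank2, Pdcd2 and Proser1. Rtl1 had 638 genes within a distance of 0.25, and Dio3 had 904. Both members rest on 14 to 34 reads per library, and the pseudocount shapes their folds, so these neighbours carry little weight. Without a pseudocount, Rtl1 in TKO_602 was at 23.1% of TKO, while Adsl had 146.6 CPM in TKO and 81.3 in TKO_602.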
